A study of Caenorhabditis elegans with 12 samples.

Results

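Lipases and the enzymes of fatty acid beta-oxidation were followed as 1 group of genes in whole Caenorhabditis elegans with and without a germline. The members were the genes named acox-, acdh-, ech-, lipl-, cpt-, hacd- or fil- with a number, together with kat-1, daf-22, dhs-28, maoc-1 and atgl-1, that reached 1 FPKM (fragment counts divided by gene length and by library size) in at least 3 of the 12 libraries. Of 49 genes with such names 45 met this minimum, out of 13614 such genes among the 20257 listed. The libraries came from glp-1(e2141) animals at day 6 (D6) and day 1 (D1) of adulthood and from wild-type N2 animals at D6 and D1, with 3 libraries in each of the 4 groups. The e2141 allele is temperature-sensitive and changes a receptor of the Notch family on which proliferation of germline stem cells depends, and mutants raised at the restrictive temperature form almost no germline. All animals, controls included, grew at 25 °C on the bacterium OP50 up to D1. The D6 animals were then kept at a lower temperature, for which the labels of replicates 1, 2 and 3 read 20, 21 and 22 °C in either genotype, whereas the design text has 20 °C throughout. A difference between D6 and D1 therefore cannot be told apart from this shift in temperature. The labels do not state whether replicate libraries stem from separate cultures, and p-values thus describe only how far these libraries scatter, which may be technical.

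As background, stored fat is released by lipases at the lipid droplet or in the lysosome, and the fatty acids are then shortened at their carboxyl end by a repeating cycle of dehydrogenation, hydration, a second dehydrogenation and thiolytic cleavage. In mitochondria, carnitine palmitoyltransferases bring the acyl chains in, and acyl-CoA dehydrogenases, enoyl-CoA hydratases, hydroxyacyl-CoA dehydrogenases and thiolases carry out the cycle. Peroxisomes run a parallel cycle that starts with acyl-CoA oxidases, and the worm also uses it to trim the side chains of ascaroside pheromones. In C. elegans fat is stored largely in the intestine and epidermis, and animals without a germline are long-lived and carry altered fat stores.

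Estimated depth was similar throughout, at 17760000 to 20120000 fragments per library. The glp-1 gene itself stood at 5.44 to 6.69 FPKM in glp-1 at D6 and 96.9 to 99.3 FPKM in wild type at D6, and at 3.21 to 3.39 FPKM in glp-1 at D1 and 64.4 to 68.7 FPKM in wild type at D1. The summed level of 16 germline markers was 22.9 to 121 FPKM in glp-1 at D6, where it differed between the libraries, and 10992 to 11853 FPKM in wild type at D6. At D1 the germline sum was 12.4 to 13.3 FPKM in glp-1, with 11 of the 16 genes below 1 FPKM in every library, and 8674 to 8998 FPKM in wild type. Markers of the intestine (12 genes) summed to 7359 to 8319 FPKM in glp-1 at D6 and 2568 to 2930 FPKM in wild type at D6, and to 4781 to 6238 FPKM in glp-1 at D1 and 2316 to 3819 FPKM in wild type at D1, where replicate 1 was the highest. Body wall muscle markers (20 genes) summed to 5862 to 6611 and 2086 to 2305 FPKM in glp-1 and wild type at D6, and to 12458 to 15100 and 4792 to 5959 FPKM at D1. Neuronal markers (23 genes) gave 1174 to 1219 and 620.4 to 708 FPKM in glp-1 and wild type at D6, and 794 to 843 and 549.6 to 591 FPKM at D1. Epidermal markers (10 genes) gave 767 to 933 and 330.3 to 411 FPKM in glp-1 and wild type at D6, and 12637 to 13398 and 3715 to 4705 FPKM at D1. In whole animals, fewer cells of a type and less RNA per cell cannot be told apart, and every value below is a share of an RNA pool in which germline markers are abundant in wild type only.

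Each difference is given on a first scale and, where stated, also on a second. Differences are in log2(FPKM + 1), a scale on which changes of weakly expressed genes come out too small, and a gene was called at an adjusted p under 0.05 in limma, with the Benjamini-Hochberg adjustment over all 13614 genes. The first scale is FPKM as deposited. On the second, the geometric mean of 35 muscle and neuron markers was set equal in all libraries, which moved the median difference of all genes from -0.03 to -1.23 for glp-1 against wild type at D6 and from -0.15 to -1.07 at D1. For D6 against D1 it moved the median from 0.20 to 0.50 in glp-1 and from 0.13 to 1.01 in wild type. Summed muscle and neuron markers moved in opposite directions with age. Mean muscle sums fell from 13532 FPKM at D1 to 6119 FPKM at D6 in glp-1, and from 5419 to 2174 FPKM in wild type. Mean neuronal sums rose from 822 to 1192 FPKM in glp-1 and from 568 to 673 FPKM in wild type. Differences with age on the second scale rest on this mixed reference, and scaling to either tissue alone was not tested. A difference called in the same direction on both scales, with a median-of-ratios scaling over all genes and with an intestinal marker scaling added after the data had been seen, is described as holding in all 4 scalings.

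In FPKM as deposited, most members had higher levels in glp-1, and a smaller set that included atgl-1 had lower ones. At D6 glp-1 had 28 of 45 members (62.2%) higher and 12 (26.7%) lower, against 44.4% and 45.4% of all genes tested. At D1 27 members (60%) were higher and 13 (28.9%) lower, against 41.3% and 48.1% of all genes. The median difference over the members was 0.89 at D6 and 0.58 at D1, beside -0.03 and -0.15 over all genes. The libraries of the 2 genotypes did not overlap for 38 of 45 members at D6 and 39 at D1, against 89.6% and 89.7% of all genes. Muscle and neuron scaling turned the counts to 14 higher and 22 lower at D6, against 20.3% and 59.4% of all genes, and to 10 higher and 25 lower at D1, against 13.2% and 59.4%, with member medians of -0.34 and -0.62. The members acdh-8 and lipl-6 reached 1 FPKM in 1 group only, and acdh-4 and lipl-4 in 1 genotype only, so a difference in these was set in part by the minimum level. In all 4 scalings 13 members were higher and 12 lower in glp-1 at D6, against 13.5% and 45.4% of all genes tested, and 10 were higher and 13 lower at D1, against 10.7% and 47.2%. Those higher in glp-1 at both ages in all 4 scalings numbered 7, namely the lipases lipl-4 and lipl-5, the carnitine transferase genes cpt-3 and cpt-5, acox-2, ech-1.1 and hacd-1. Another 7 were lower at both ages in all 4, namely atgl-1, cpt-6, acdh-3, acdh-4, acdh-13, ech-1.2 and ech-2. Of all genes tested, 6.58% were higher and 42.1% lower at both ages in all 4.

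**Figure D1:**
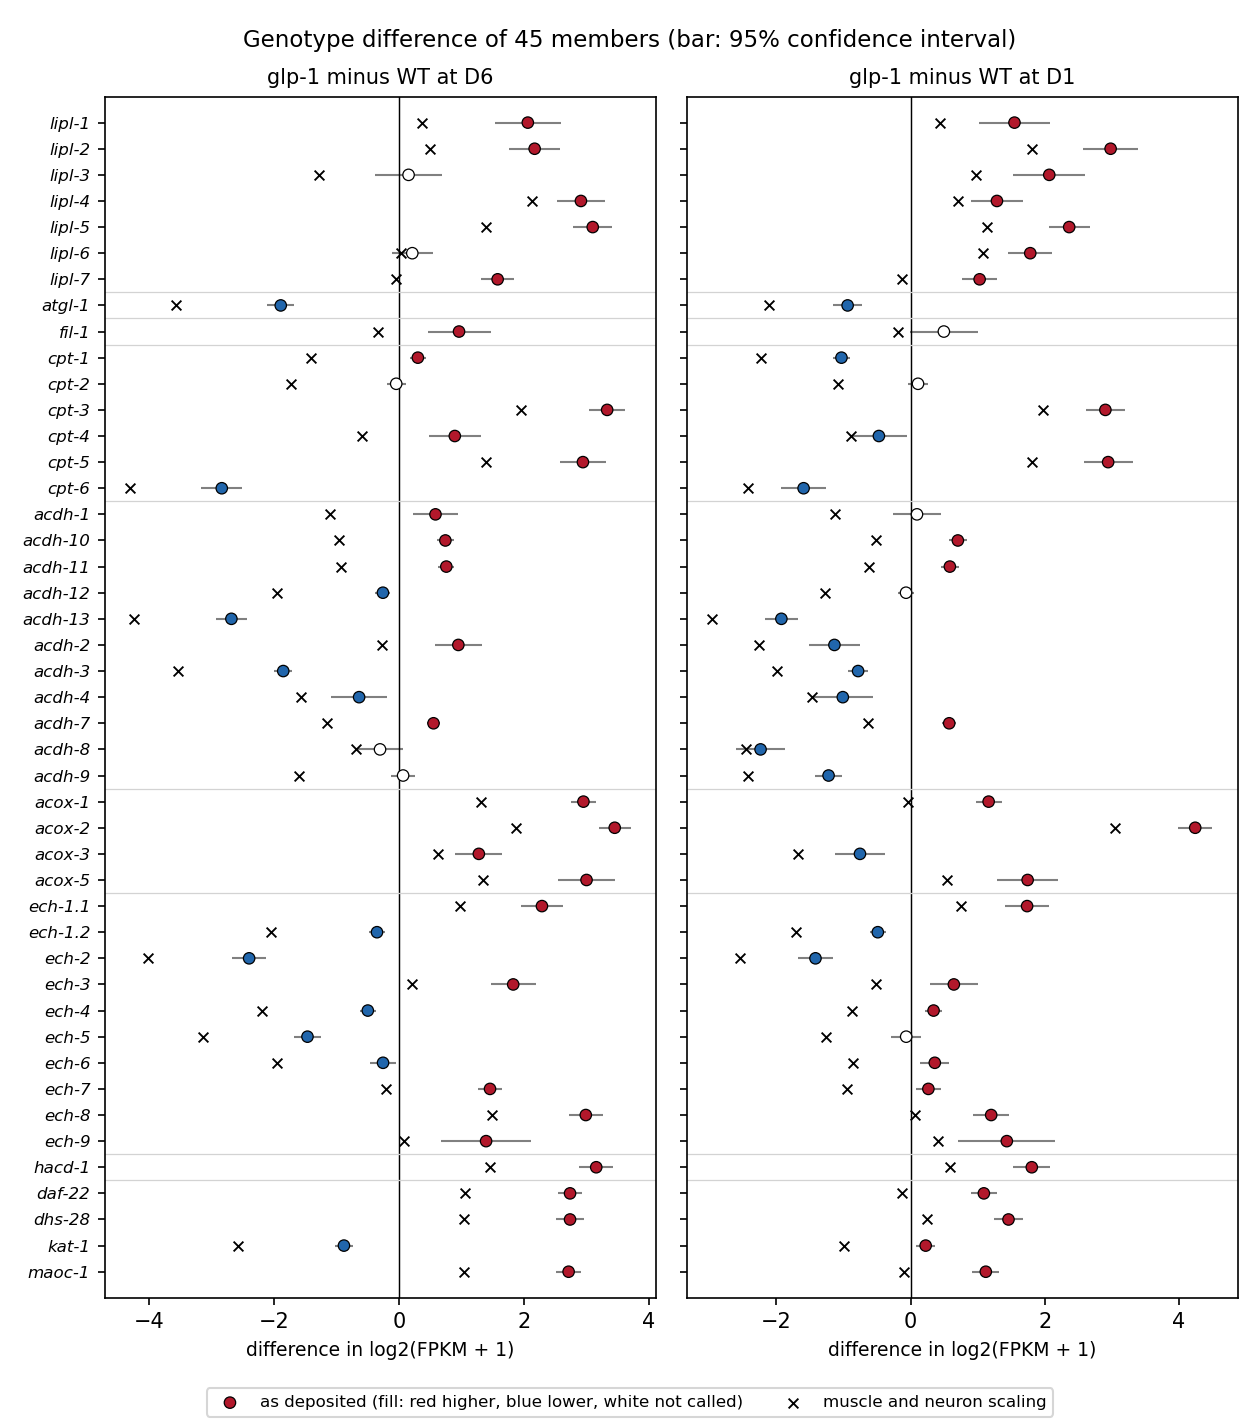
Difference in log2(FPKM + 1) between glp-1 and wild type (WT) for the 45 members, at D6 (left) and D1 (right), with circles for FPKM as deposited, bars for 95% confidence intervals and crosses for the muscle and neuron scaling. Circles of the lipl genes lie right of 0, with the crosses of lipl-7 at both ages and of lipl-3 at D6 left of it, those of atgl-1, cpt-6, acdh-13 and ech-2 lie left of 0 at both ages, and the crosses lie left of the circles throughout.

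Lipases of the lipl family, which resemble human lysosomal acid lipase, were mostly higher in glp-1 in FPKM as deposited. At D1 all 7 members tested were called higher in FPKM as deposited, and 5 of them also with muscle and neuron scaling, the exceptions being lipl-1 and lipl-7. The minimum level was met by lipl-4 and lipl-6 through glp-1 libraries only, which set their differences in part. At D6 5 of 7 were called higher as deposited, and with that scaling 2 were higher (lipl-4 and lipl-5) and 1 lower (lipl-3). The shares of all genes called higher were 44.4% at D6 and 41.3% at D1 as deposited, and 20.3% at D6 and 13.2% at D1 with that scaling, where 59.4% were lower at either age. A single gene, lipl-5 (chromosome V, 385746 to 387740, plus strand), supplied most of the transcripts of the family, with 86.2% of the summed FPKM in glp-1 at D6 and 75.2% in wild type at D6, and 93.5% in glp-1 at D1 and 92.8% in wild type at D1. It had 2065, 2505 and 2416 FPKM in the glp-1 libraries at D6 and 341, 231 and 249 FPKM in the wild-type libraries at D6. At D1 it had 1836, 1742 and 1862 FPKM in glp-1 and 361, 296 and 407 FPKM in wild type. Every glp-1 library thus lay above every wild-type library, and lipl-5 was the most abundant member in glp-1 at both ages and in wild type at D6. The difference between genotypes was 3.10 (SE 0.14, adjusted p = 1.54e-10) at D6, a ratio of mean FPKM of 8.51, and 2.36 (SE 0.14, adjusted p = 3.38e-09) at D1, a ratio of 5.12. With muscle and neuron scaling these were 1.39 and 1.14.

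The lysosomal lipase lipl-4 (chromosome V, 6550171 to 6552186, plus strand), whose activity in the intestine has been tied to long life in germline-less worms, was nearly undetected in wild type. It had 10.4, 8.14 and 7.20 FPKM in glp-1 at D6 and 0.352, 0.182 and 0.251 FPKM in wild type at D6. At D1 it had 2.02, 1.53 and 2.02 FPKM in glp-1 and 0.526, 0 and 0.0406 FPKM in wild type, where replicate 2 is listed at 0. The glp-1 libraries stood apart from the wild-type libraries at both ages, with differences of 2.91 (SE 0.18, adjusted p = 2.42e-09) at D6 and 1.29 (SE 0.18, adjusted p = 1.45e-05) at D1. Within glp-1 it was higher at D6 than at D1 by 1.74 (SE 0.18, adjusted p = 3.93e-06), while in wild type the difference was 0.11 (SE 0.18) and was not called (adjusted p = 0.621). The difference between these changes was 1.62 (SE 0.25, adjusted p = 0.000233) and held in all 4 scalings. However, lipl-4 met the minimum level through glp-1 libraries only, so its differences were set in part by that minimum. Its wild-type libraries lay at or below 0.526 FPKM, where a change with age would hardly show.

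A pair of lipases of the family rose with age in both genotypes. For lipl-1 (chromosome V, 12919986 to 12921692, plus strand), a lysosomal lipase known to be induced by fasting, the libraries had 183, 185 and 217 FPKM in glp-1 at D6 and 24.4, 10.4 and 20.4 FPKM in glp-1 at D1. In wild type they had 51.6, 43.0 and 43.2 FPKM at D6 and 6.78, 4.69 and 4.60 FPKM at D1. All D6 libraries lay above all D1 libraries of their genotype, by 3.41 (SE 0.24, adjusted p = 2.29e-07) in glp-1 and 2.90 (SE 0.24, adjusted p = 1.26e-06) in wild type, in all 4 scalings. The ratios of mean FPKM were 10.6 and 8.58, and the 2 changes did not differ at the threshold (0.51, SE 0.34, 95% interval -0.23 to 1.26, adjusted p = 0.234). For lipl-2 the libraries had 102, 130.3 and 148 FPKM in glp-1 at D6 and 68.5, 48.8 and 64.8 FPKM at D1. In wild type they had 33.3, 24.1 and 24.6 FPKM at D6 and 6.97, 5.16 and 8.45 FPKM at D1. Again no D6 library overlapped a D1 library of its genotype, with rises of 1.05 (SE 0.19, adjusted p = 0.000482) in glp-1 and 1.86 (SE 0.19, adjusted p = 5.39e-06) in wild type in all 4 scalings. The difference between genotypes of lipl-2 was 2.17 (SE 0.19) at D6 and 2.98 (SE 0.19) at D1, and of lipl-1 2.06 (SE 0.24) and 1.55 (SE 0.24). Of these 4 differences only that of lipl-2 at D1 was called with muscle and neuron scaling (1.80).

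Another pair, lipl-3 and lipl-6, fell with age in glp-1 in all 4 scalings. For lipl-6, which met the minimum level only through glp-1 at D1, that fall was set in part by the minimum. The fasting-induced lipase lipl-3 had 4.55, 3.83 and 6.01 FPKM in glp-1 at D6 and 16, 16.6 and 18 FPKM in glp-1 at D1, with no overlap, a fall to 0.284 of the D1 mean (-1.64, SE 0.25, adjusted p = 0.000105). Wild-type libraries had 5.87, 4.67 and 2.51 FPKM at D6 and 4.57, 2.14 and 3.43 FPKM at D1, which overlapped (0.27, SE 0.25, adjusted p = 0.363 as deposited). With muscle and neuron scaling lipl-3 was called higher at D6 in wild type (1.12). The changes differed between genotypes by -1.91 (SE 0.35, adjusted p = 0.000742). The transcript of lipl-6 was seen above 1 FPKM only in glp-1 at D1, with 3.08, 3.32 and 2.64 FPKM, against 0.111, 0.147 and 0.236 FPKM in wild type at D1, and no D6 library of either genotype exceeded 0.513 FPKM. The last member of the family tested, lipl-7, had means of 39.0 ± 3.50 FPKM in glp-1 and 12.4 ± 1.65 FPKM in wild type at D6, and 24.9 ± 1.92 and 11.8 ± 1.96 FPKM at D1 (SD, n = 3). It was called higher in glp-1 at both ages as deposited, with 1.58 (SE 0.12) at D6 and 1.03 (SE 0.12) at D1, and at neither age with muscle and neuron scaling (-0.06 and -0.13). The eighth name, lipl-8, never exceeded 0.214 FPKM and was not tested.

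**Figure D2:**
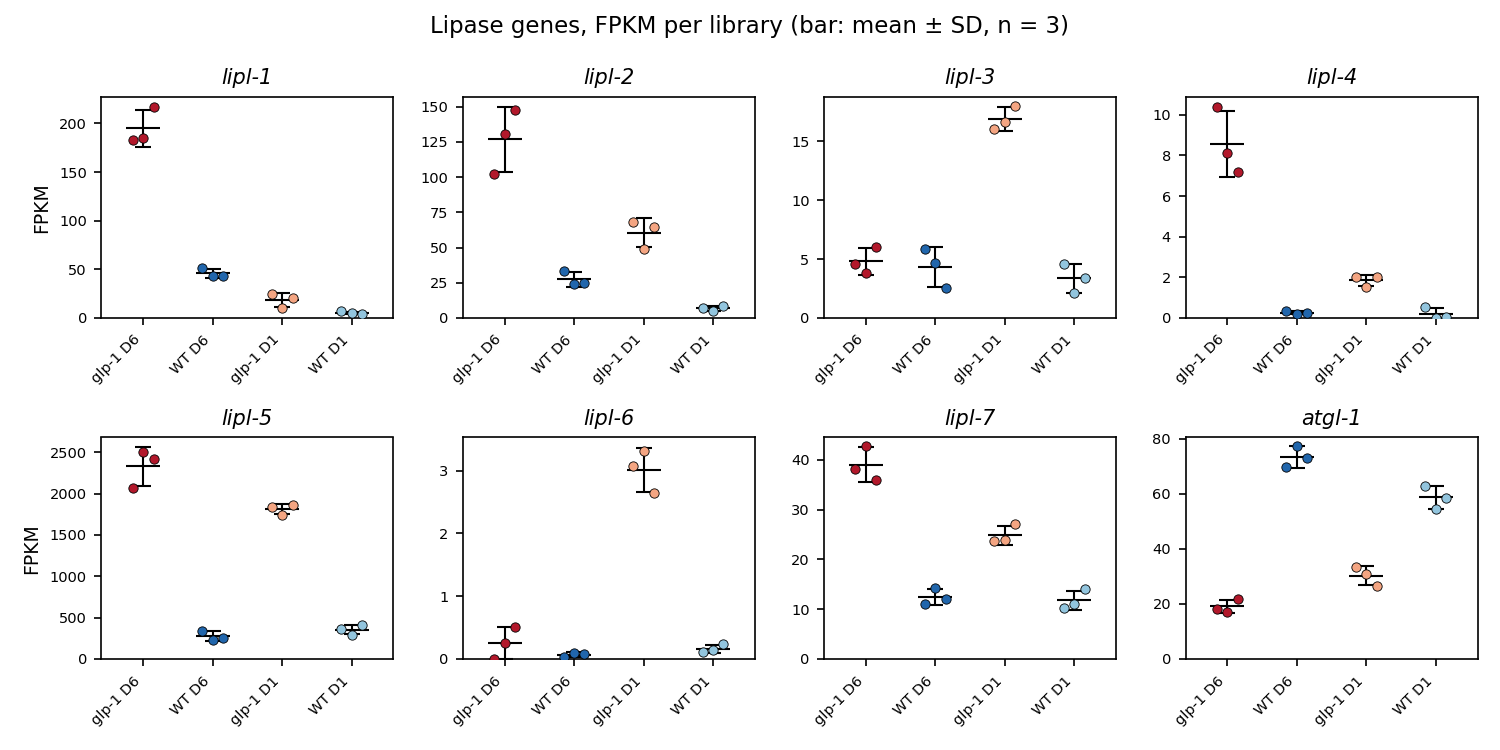
FPKM of 7 lipl genes and atgl-1 in each library (points) with mean and SD (bars), in glp-1 and wild type (WT) at D6 and D1, on linear axes from 0. In the panel of lipl-5 the glp-1 libraries lie between 1742 and 2505 FPKM and the wild-type libraries between 231 and 407 FPKM, while in that of atgl-1 the wild-type libraries are the higher ones.

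Adipose triglyceride lipase, which starts the breakdown of triglyceride at the lipid droplet, went the other way. The gene atgl-1 (chromosome III, 6415772 to 6419459, minus strand) had 18.2, 17.2 and 21.9 FPKM in glp-1 at D6 and 69.7, 77.4 and 72.9 FPKM in wild type at D6. At D1 it had 33.4, 30.8 and 26.5 FPKM in glp-1 and 62.9, 54.5 and 58.6 FPKM in wild type. Every glp-1 library lay below every wild-type library, with differences of -1.89 (SE 0.10, adjusted p = 5.44e-10) at D6 and -0.94 (SE 0.10, adjusted p = 1.18e-06) at D1, and both held in all 4 scalings. It was lower at D6 than at D1 in glp-1 (-0.64, SE 0.10, adjusted p = 0.00016), and higher at D6 in wild type (0.32, SE 0.10, adjusted p = 0.0175). The rise in wild type lost its call without replicate 2 of wild type at D1 (0.27, adjusted p = 0.0696) or at D6 (0.28, adjusted p = 0.0647), and the fall in glp-1 with muscle and neuron scaling (-0.17). The changes with age differed by -0.96 (SE 0.14, adjusted p = 0.000173), in all 4 scalings. The partners of this enzyme at the droplet were mixed at D6, with abhd-5.2 and plin-1 (perilipin) called higher in glp-1 as deposited and lid-1 and hosl-1 (a hormone-sensitive lipase homolog) lower, and all 4 lower with muscle and neuron scaling. The fasting-induced lipase gene fil-1 stayed at low levels, with 3.76, 4.42 and 6.51 FPKM in glp-1 at D6 and 2.49, 2.06 and 1.46 FPKM in wild type at D6. The groups did not overlap at D6, where fil-1 was called higher in glp-1 as deposited (0.96, SE 0.23, adjusted p = 0.00154) but not with muscle and neuron scaling (-0.34). At D1 it had 2.72, 1.16 and 2.00 FPKM in glp-1 and 0.924, 0.773 and 1.53 FPKM in wild type, groups that overlapped. Its relative fil-2 reached 1 FPKM in 2 libraries only, glp-1 replicates 2 and 3 at D6, and was not tested.

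The 6 genes of the peroxisomal cycle described first were higher in glp-1 at D6, and for all but acox-2 and acox-5 the gap between genotypes was wider at D6 than at D1 in all 4 scalings. The 6 were acox-1, acox-2 and acox-5, which encode acyl-CoA oxidases, maoc-1, an enoyl-CoA hydratase, dhs-28, a hydroxyacyl-CoA dehydrogenase, and daf-22, the thiolase of the last step. The other oxidase member, acox-3, was lower in glp-1 at D1 in all 4 scalings (-0.75), and its higher level at D6 did not hold in all 4. At D6 all 6 were higher in glp-1 in all 4 scalings, against 13.5% of all genes tested, with ratios of mean FPKM between 6.76 (maoc-1) and 12.5 (acox-2). The set leaves out acox-3, and acox-2 and acox-5 were named among the members with the highest differences at D6. Counts over these 6 genes were therefore set in part by their choice. At D1 all 6 were called higher as deposited, against 41.3% of all genes, with ratios between 2.14 (daf-22) and 21.0 (acox-2). With muscle and neuron scaling only acox-2 was higher at D1 (3.05), against 13.2% of all genes, and acox-1, maoc-1 and daf-22 then had values just below 0. With intestinal scaling daf-22 was called lower in glp-1 at D1 (-0.27), and acox-2 (2.94) and acox-5 (0.40) were called higher.

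The oxidase acox-1, which acts on ascaroside side chains, had 87.1, 101 and 91.9 FPKM in glp-1 at D6 and 12.6, 11.1 and 9.95 FPKM in wild type at D6. At D1 it had 73.9, 68.9 and 68 FPKM in glp-1 and 33.0, 31.2 and 28.4 FPKM in wild type. Every glp-1 library lay above every wild-type library, and the order by age was opposite in the genotypes, with D6 above D1 in glp-1 and below it in wild type. The difference between genotypes was 2.95 (SE 0.09, adjusted p = 1.85e-12) at D6 and 1.16 (SE 0.09, adjusted p = 3.3e-08) at D1. Levels of acox-1 at D6 differed from those at D1 by 0.40 (SE 0.09, adjusted p = 0.00207) in glp-1 and -1.39 (SE 0.09, adjusted p = 6.92e-08) in wild type. The second of these held in all 4 scalings and the first did not (intestinal scaling, 0.22).

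The peroxisomal hydratase and dehydrogenase genes were also higher in glp-1 at both ages and lower with age in wild type, as deposited. For maoc-1 (chromosome II, 7196276 to 7197495, plus strand) the libraries had 172, 194 and 195 FPKM in glp-1 at D6 and 29.0, 29.2 and 24.7 FPKM in wild type at D6. They had 165, 160.3 and 147 FPKM in glp-1 at D1 and 78.3, 63.3 and 74.3 FPKM in wild type at D1. The differences between genotypes, with no overlap at either age, were 2.71 (SE 0.09, adjusted p = 4.68e-12) at D6 and 1.12 (SE 0.09, adjusted p = 5.92e-08) at D1. In wild type maoc-1 was lower at D6 than at D1 in all 4 scalings (-1.35, SE 0.09, adjusted p = 1.1e-07). In glp-1 it was called slightly higher (0.25, SE 0.09, adjusted p = 0.036), a call that ended without replicate 2 or 3 of either glp-1 group (0.20 to 0.26, adjusted p from 0.0597 to 0.13). For dhs-28 (chromosome X, 6818438 to 6820080, plus strand) the libraries had 292, 326 and 321 FPKM in glp-1 at D6 and 46.4, 45.2 and 46.4 FPKM in wild type at D6. They had 367, 332 and 329 FPKM in glp-1 at D1 and 150.2, 107 and 118.7 FPKM in wild type at D1. Again no glp-1 library overlapped a wild-type library, with 2.74 (SE 0.10, adjusted p = 1.15e-11) at D6 and 1.46 (SE 0.10, adjusted p = 1.08e-08) at D1. With age dhs-28 was lower in wild type (-1.41, SE 0.10, adjusted p = 1.84e-07), while the difference in glp-1 was -0.13 (SE 0.10) with a 95% interval of -0.35 to 0.09 (adjusted p = 0.294) and became 0.35 with muscle and neuron scaling. Unlike acox-1, dhs-28 in glp-1 had every D6 library below every D1 library, and was called lower with median-of-ratios scaling (-0.32) and intestinal scaling (-0.31) but higher with muscle and neuron scaling.

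The thiolase daf-22 (chromosome II, 12423518 to 12425694, minus strand), which worms need to make short-chain ascarosides, had 153, 174 and 157 FPKM in glp-1 at D6 and 25.5, 21.2 and 23.4 FPKM in wild type at D6. It had 231, 211 and 216 FPKM in glp-1 at D1 and 116, 96.6 and 95.9 FPKM in wild type at D1. The wild-type libraries at D6 were the lowest of the 4 groups, and daf-22 fell with age in both genotypes, by far less in glp-1 (-0.44, SE 0.09, adjusted p = 0.000833) than in wild type (-2.09, SE 0.09, adjusted p = 1.61e-09). The value in glp-1 was 0.04 and was not called with muscle and neuron scaling, and the deposited call ended when replicates 1 and 3 of glp-1 at D6, the 2 libraries with the higher germline sums, were left out (-0.33, adjusted p = 0.0506). The genotype difference was 2.74 (SE 0.09, adjusted p = 2.84e-12) at D6 and 1.09 (SE 0.09, adjusted p = 4.77e-08) at D1 as deposited. With intestinal scaling the difference at D1 was called in the other direction (-0.27). In terms of the change with age, glp-1 exceeded wild type by 1.79 (SE 0.13) for acox-1, 1.59 (SE 0.13) for maoc-1, 1.28 (SE 0.14) for dhs-28 and 1.65 (SE 0.12) for daf-22, with adjusted p between 5.59e-07 and 1.67e-05, each in all 4 scalings.

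The remaining oxidase genes varied more. The gene acox-2 had 76.8, 80.2 and 82.5 FPKM in glp-1 at D6 and 5.94, 6.24 and 7.0002 FPKM in wild type at D6. It had 170.1, 169 and 147 FPKM in glp-1 at D1 and 6.38, 9.65 and 7.12 FPKM in wild type at D1. No glp-1 library came near a wild-type library, with 3.45 (SE 0.12, adjusted p = 5.72e-12) at D6 and 4.24 (SE 0.12, adjusted p = 1.28e-12) at D1, the second being the greatest genotype difference of any member. Its level fell with age in glp-1 in all 4 scalings (-1.01, SE 0.12, adjusted p = 1.22e-05), while in wild type the difference was -0.22 (SE 0.12, adjusted p = 0.126). That value was called without replicate 1 of wild type at D1 (-0.33, adjusted p = 0.031) and was above 0 with muscle and neuron scaling (0.66) and with intestinal scaling (0.21). For acox-5 the libraries had 104.3, 121 and 139 FPKM in glp-1 at D6 and 14.9, 12.5 and 15.3 FPKM in wild type at D6. They had 136, 106 and 98.6 FPKM in glp-1 at D1 and 47.04, 23.2 and 32.4 FPKM in wild type at D1. The groups were separate at both ages, with 3.00 (SE 0.21) at D6 and 1.74 (SE 0.21) at D1, although single libraries of acox-5 scattered more than those of acox-1. With age acox-5 was lower in wild type (-1.16, SE 0.21, adjusted p = 0.00058) and not called in glp-1 (0.10, SE 0.21, 95% interval -0.36 to 0.56). The fall in wild type was not called with muscle and neuron scaling (-0.24). The changes differed by 1.26 (SE 0.30, adjusted p = 0.00442), a difference not called with muscle and neuron scaling (0.81). For acox-3 the libraries had 2.504, 2.07 and 1.72 FPKM in glp-1 at D6 and 0.285, 0.0845 and 0.474 FPKM in wild type at D6, and 2.87, 4.33 and 4.25 FPKM in glp-1 at D1 and 8.39, 6.51 and 6.35 FPKM in wild type at D1. It was thus higher in glp-1 at D6 (1.28, SE 0.17) and lower at D1 (-0.75, SE 0.17), the first not called with intestinal scaling (0.43) and the second in all 4 scalings. Symbols of acox genes have been reassigned over time. The annotation gives acox-3 to F58F9.7, which the files list as a separate gene, and holds no acox-1, acox-2 or acox-5, so no coordinates are given for the 4 acox members.

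**Figure D3:**
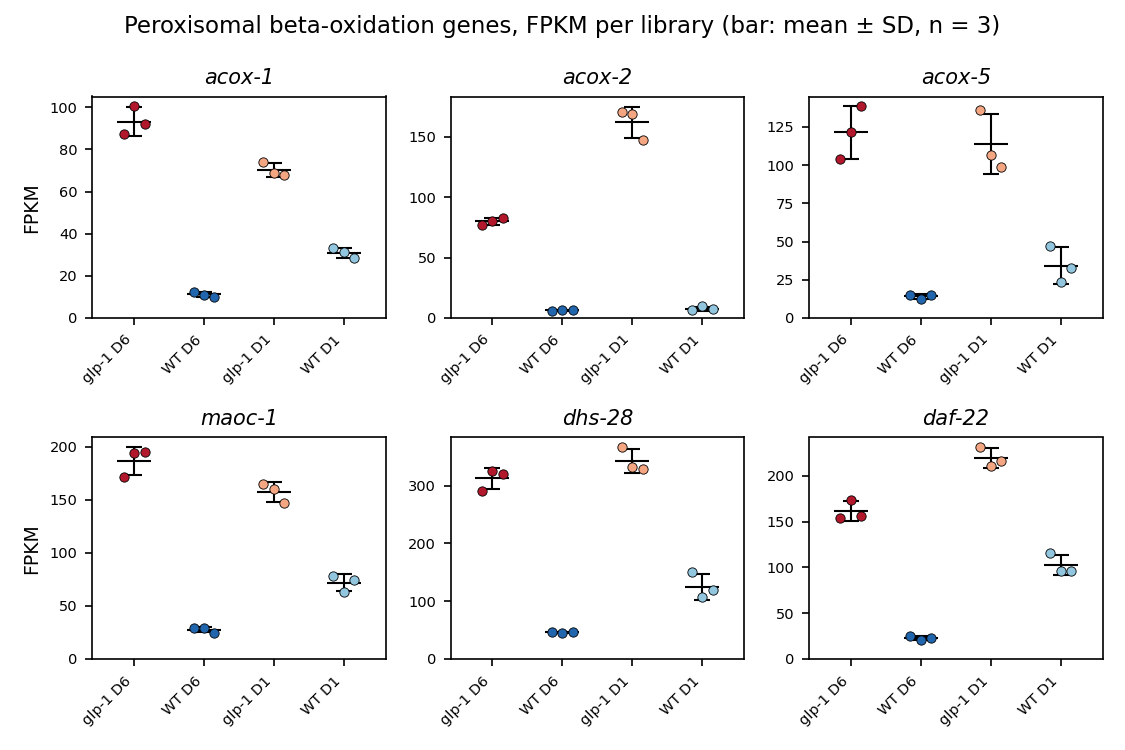
FPKM of 6 genes of the peroxisomal cycle in each library (points) with mean and SD (bars), in glp-1 and wild type (WT) at D6 and D1, on linear axes from 0. In wild type the D6 points of acox-1, maoc-1, dhs-28 and daf-22 lie below the D1 points, while in glp-1 those of acox-1 lie above and those of daf-22 below their D1 points, and acox-2 in wild type stays under 10 FPKM (highest library 9.65).

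Entry of fatty acids into mitochondria was represented by 6 carnitine palmitoyltransferase genes. The most abundant, cpt-1 (chromosome II, 12788244 to 12796452, minus strand), encodes the enzyme of the outer mitochondrial membrane. It had 252, 265 and 251 FPKM in glp-1 at D6 and 78.7, 72.2 and 68.6 FPKM in glp-1 at D1. In wild type it had 199, 214 and 209 FPKM at D6 and 156, 145 and 149 FPKM at D1. In both genotypes every D6 library lay above every D1 library, by 1.79 (SE 0.06, adjusted p = 2.5e-10) in glp-1 and 0.46 (SE 0.06, adjusted p = 3.34e-05) in wild type, in all 4 scalings, and the rise was larger in glp-1 (1.33, SE 0.09, adjusted p = 3.34e-07). At D1 cpt-1 was lower in glp-1 in all 4 scalings (-1.03, SE 0.06). At D6 it was called higher as deposited (0.30, SE 0.06) and lower with muscle and neuron scaling (-1.40). Its partner of the inner membrane, cpt-2, showed no called difference between genotypes as deposited, with -0.04 (SE 0.07) at D6 (95% interval -0.20 to 0.11) and 0.11 (SE 0.07) at D1 (95% interval -0.04 to 0.27). With muscle and neuron scaling cpt-2 was called lower in glp-1 at D6 (-1.73) and D1 (-1.08), and with median-of-ratios scaling higher at D1 (0.22).

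The less abundant relatives of cpt-1 differed more. For cpt-3 (chromosome III, 2082819 to 2088314, plus strand) the libraries had 26.4, 29.5 and 29.1 FPKM in glp-1 at D6 and 1.64, 2.40 and 1.74 FPKM in wild type at D6. They had 9.70, 9.53 and 8.75 FPKM in glp-1 at D1 and 0.545, 0.175 and 0.449 FPKM in wild type at D1. The 4 groups were fully separate, with glp-1 above wild type and D6 above D1, in all 4 scalings. Genotype differences of cpt-3 were 3.33 (SE 0.14, adjusted p = 2.92e-11) at D6 and 2.90 (SE 0.14, adjusted p = 1.59e-10) at D1. For cpt-5 (chromosome V, 13873195 to 13875888, plus strand) the libraries had 45.5, 48.4 and 44.2 FPKM in glp-1 at D6 and 6.03, 4.95 and 4.45 FPKM in wild type at D6. They had 38.2, 45.6 and 31.8 FPKM in glp-1 at D1 and 3.49, 5.70 and 3.38 FPKM in wild type at D1. Here the genotypes were separate, with 2.94 (SE 0.17) at D6 and 2.94 (SE 0.17) at D1, and neither change with age was called as deposited, with 0.26 (SE 0.17) in glp-1 and 0.26 (SE 0.17) in wild type. The value in wild type was called without replicate 2 of wild type at D1 (0.46, adjusted p = 0.02).

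The gene cpt-6 went the opposite way to cpt-5, with 2.18, 1.74 and 1.28 FPKM in glp-1 at D6 and 18.5, 18.6 and 17.99 FPKM in wild type at D6. At D1 it had 1.88, 3.10 and 2.01 FPKM in glp-1 and 8.57, 9.62 and 8.60 FPKM in wild type. All glp-1 libraries lay below all wild-type libraries, with differences of -2.84 (SE 0.15, adjusted p = 5.24e-10) at D6 and -1.59 (SE 0.15, adjusted p = 3.08e-07) at D1, in all 4 scalings. The gene cpt-4 rose with age in both genotypes in all 4 scalings, with 7.99, 10.1 and 7.99 FPKM at D6 and 0.354, 0.766 and 0.546 FPKM at D1 in glp-1 (2.64, SE 0.19) and 3.52, 5.12 and 4.05 FPKM at D6 and 1.08, 0.683 and 1.82 FPKM at D1 in wild type (1.27, SE 0.19). Its genotype difference at D1 was small and the groups overlapped (-0.47, SE 0.19, adjusted p = 0.0347), and its call ended without replicate 1 or 3 of either D1 group (-0.49 to -0.27, adjusted p from 0.0548 to 0.173).

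Acyl-CoA dehydrogenases, the flavoenzymes of the first mitochondrial step, were split. Of 11 acdh members, 5 were called higher and 4 lower in glp-1 at D6, and 3 higher and 6 lower at D1, as deposited, where all genes had 44.4% higher and 45.4% lower at D6 and 41.3% and 48.1% at D1. On the muscle and neuron scale none was higher, 10 were lower at D6 and all 11 were lower at D1, where 59.4% of all genes were lower at either age. The 3 higher at both ages as deposited were acdh-7, acdh-10 and acdh-11, and acdh-7 and acdh-10 encode medium-chain enzymes. For acdh-7 the libraries had 190.4, 194 and 197 FPKM in glp-1 at D6 and 128, 135 and 132 FPKM in wild type at D6. They had 144, 144 and 143 FPKM in glp-1 at D1 and 98.9, 95.5 and 94.4 FPKM in wild type at D1. Replicates of acdh-7 were close and the 4 groups did not overlap, with 0.55 (SE 0.05) at D6 and 0.58 (SE 0.05) at D1, against -1.15 and -0.64 with muscle and neuron scaling. The genes acdh-7 and acdh-10 are neighbours on the minus strand of chromosome X, 115 bases apart, and acdh-10 had genotype differences of 0.74 (SE 0.06) and 0.70 (SE 0.06). For acdh-11 these were 0.76 (SE 0.06) and 0.59 (SE 0.06).

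Those lower in glp-1 were led by acdh-13 (chromosome IV, 8496485 to 8498823, minus strand). It had 2.94, 4.36 and 3.98 FPKM in glp-1 at D6 and 30.1, 27.8 and 30.1 FPKM in wild type at D6, and 6.02, 6.63 and 6.25 FPKM in glp-1 at D1 and 25.4, 28.1 and 26.6 FPKM in wild type at D1. The glp-1 libraries were all lower, with differences of -2.68 (SE 0.11, adjusted p = 3.86e-11) at D6 and -1.92 (SE 0.11, adjusted p = 1.68e-09) at D1, in all 4 scalings. For acdh-3 the libraries had 32.7, 37.0 and 36.8 FPKM in glp-1 at D6 and 138, 123 and 131 FPKM in wild type at D6, and 79.7, 77.1 and 76.4 FPKM in glp-1 at D1 and 139, 126 and 139 FPKM in wild type at D1. This gene fell with age in glp-1 in all 4 scalings (-1.11, SE 0.07) and not in wild type as deposited (-0.04, SE 0.07, 95% interval -0.18 to 0.10; 0.93 with muscle and neuron scaling), and the 2 changes differed (-1.07, SE 0.09, adjusted p = 2.53e-06). The annotation places exons of acdh-3 over those of knl-2, a kinetochore gene on the opposite strand that averaged 4.35 FPKM in glp-1 and 76.4 FPKM in wild type at D6, and 1.34 and 59.4 FPKM at D1, and whether its fragments entered the value of acdh-3 was not tested. A pair of dehydrogenases at low level were near 0 in glp-1. They were acdh-8, with 0, 0.0851 and 0 FPKM in glp-1 and 4.93, 3.58 and 3.16 FPKM in wild type at D1, and acdh-4, with 0.828, 0.294 and 0.687 FPKM in glp-1 and 2.81, 2.28 and 1.61 FPKM in wild type at D1. Both met the minimum level through wild-type libraries only, which set these differences in part. Among the untested names, acdh-5 never exceeded 1.18 FPKM and acdh-6 never exceeded 1.48 FPKM. For acdh-12, a dehydrogenase of long chains, the difference between genotypes was -0.26 (SE 0.05) at D6 and -0.07 (SE 0.05) at D1 as deposited, the first called and the second not. With muscle and neuron scaling both were called, at -1.96 and -1.28.

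A sharp fall with age in both genotypes marked acdh-1 (chromosome I, 6497436 to 6499560, plus strand) and ech-6 (chromosome III, 9751552 to 9752883, minus strand), the dehydrogenase and the hydratase of the propionate shunt, a route by which the worm breaks down the short acid propionate in place of the vitamin B12-dependent one. The libraries of acdh-1 had 129, 72.0 and 111 FPKM in glp-1 at D6 and 744, 779 and 712 FPKM in glp-1 at D1. In wild type they had 72.7, 62.1 and 66.7 FPKM at D6 and 791, 647 and 661 FPKM at D1. No D6 library came near a D1 library, with differences of -2.87 (SE 0.16, adjusted p = 2.77e-08) in glp-1 and -3.36 (SE 0.16, adjusted p = 1.06e-08) in wild type, and the genotypes overlapped at both ages. The call for acdh-1 between genotypes at D6 (0.58, SE 0.16) ended when replicates 1 and 3 of glp-1 at D6 were left out (0.10, adjusted p = 0.439), and muscle and neuron scaling gave -1.11. The libraries of ech-6 had 136, 110.4 and 156 FPKM in glp-1 at D6 and 725, 721 and 720.3 FPKM in glp-1 at D1, and 162, 155 and 159.5 FPKM in wild type at D6 and 591, 581.5 and 516 FPKM in wild type at D1. The differences of ech-6 between ages were -2.43 (SE 0.10, adjusted p = 9.02e-10) in glp-1 and -1.82 (SE 0.10, adjusted p = 1.62e-08) in wild type, and like those of acdh-1 they held in all 4 scalings. Its genotype difference at D6 was -0.26 (SE 0.10, adjusted p = 0.0268) with overlapping groups, a call that ended without replicate 1 or 3 of wild type at D6 (-0.24 and -0.25, adjusted p = 0.0679 and 0.059) or replicate 2 of glp-1 at D6 (-0.12, adjusted p = 0.137).

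The other enzymes of that shunt gave the following values. Y38F1A.6 (hphd-1), a dehydrogenase of 3-hydroxypropionate, had means of 85.5 ± 14.2 FPKM in glp-1 at D6 and 421 ± 9.54 FPKM in glp-1 at D1, and 55.4 ± 2.91 FPKM in wild type at D6 and 332 ± 50.8 FPKM in wild type at D1 (SD, n = 3). It fell with age in both genotypes, with -2.30 (SE 0.12, adjusted p = 7.77e-09) in glp-1 and -2.55 (SE 0.12, adjusted p = 4.98e-09) in wild type, in all 4 scalings. F09F7.4 (hach-1), a hydrolase, had -1.15 (SE 0.08, adjusted p = 1.54e-07) in glp-1 and -1.20 (SE 0.08, adjusted p = 1.43e-07) in wild type, the second not called with muscle and neuron scaling (-0.24). For alh-8, the last enzyme, the values were -0.32 (SE 0.10) and -0.69 (SE 0.10) as deposited, and 0.17 and 0.28 with that scaling. Of the canonical, vitamin-dependent route, pcca-1, pccb-1, mce-1 and mmcm-1 had no called change with age in wild type as deposited. With muscle and neuron scaling each of them was called higher at D6 in wild type. In glp-1 mce-1 (-0.48, SE 0.08, adjusted p = 0.000231) and pccb-1 (-0.46, SE 0.07, adjusted p = 6.59e-05) were called lower with age as deposited, and pcca-1 (-0.10, SE 0.07) and mmcm-1 (0.01, SE 0.05) were not called. Neither mce-1 nor pccb-1 was called lower with age in glp-1 with muscle and neuron scaling. A paralog of acdh-1, acdh-2, had 4.47, 3.50 and 3.86 FPKM in glp-1 at D6 and 14.7, 13.7 and 13.7 FPKM in glp-1 at D1, and 1.37, 2.32 and 1.11 FPKM in wild type at D6 and 36.7, 35.5 and 25.0 FPKM in wild type at D1. It also fell in both genotypes in all 4 scalings, with -1.61 (SE 0.18) in glp-1 and -3.69 (SE 0.18) in wild type. The gene acdh-9 had 25.1, 28.8 and 29.0 FPKM in glp-1 at D6 and 51.7, 55.5 and 55.1 FPKM in glp-1 at D1, and 24.4, 29.5 and 25.2 FPKM in wild type at D6 and 133, 136 and 114 FPKM in wild type at D1. The hydratase gene ech-7 had 67.7, 68.8 and 76.1 FPKM in glp-1 at D6 and 205, 169 and 186 FPKM in glp-1 at D1, and 25.5, 22.2 and 27.96 FPKM in wild type at D6 and 152, 156 and 156 FPKM in wild type at D1. Both fell with age without overlap and in all 4 scalings, acdh-9 with -0.95 (SE 0.09) in glp-1 and -2.23 (SE 0.09) in wild type, and ech-7 with -1.38 (SE 0.09) in glp-1 and -2.57 (SE 0.09) in wild type.

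Of the 10 enoyl-CoA hydratase genes, which carry out or resemble the second step, 5 were called higher and 5 lower in glp-1 at D6, and 7 higher and 2 lower at D1, as deposited. The split at D6 was close to that of all genes (44.4% higher and 45.4% lower), and at D1 all genes had 41.3% higher and 48.1% lower. Scaling to muscle and neuron markers left 2 higher and 5 lower at D6, against 20.3% and 59.4% of all genes, and 1 higher and 7 lower at D1, against 13.2% and 59.4%. The largest genotype difference among them at D6 was that of ech-8 (chromosome IV, 10236626 to 10239176, minus strand). Its libraries had 30.9, 35.9 and 36.3 FPKM in glp-1 at D6 and 3.48, 4.09 and 2.84 FPKM in wild type at D6, and 22.5, 18.8 and 20.7 FPKM in glp-1 at D1 and 8.07, 7.65 and 9.57 FPKM in wild type at D1. The groups were separate at both ages, by 2.99 (SE 0.12, adjusted p = 3.73e-11) at D6 and 1.20 (SE 0.12, adjusted p = 7.32e-07) at D1, the second not called with muscle and neuron scaling (0.06). Like acox-1, ech-8 was higher at D6 than at D1 in glp-1 (0.71, SE 0.12) and lower in wild type (-1.08, SE 0.12) as deposited. Unlike that of acox-1, its fall in wild type was not called with muscle and neuron scaling (-0.29). The changes of ech-8 differed by 1.79 (SE 0.18, adjusted p = 6.15e-06) in all 4 scalings. The gene ech-8 lies between ech-9, 1297 bases away, and lipl-7, 102 bases away, all on the minus strand. The genotype difference of ech-9 was 1.39 (SE 0.33) at D6 and 1.43 (SE 0.33) at D1 as deposited, with neither called with muscle and neuron scaling.

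The 2 genes for the large subunit of the mitochondrial trifunctional protein went opposite ways. The abundant ech-1.2 (chromosome I, 6206955 to 6211155, minus strand) had 142, 146 and 133 FPKM in glp-1 at D6 and 184, 182 and 174 FPKM in wild type at D6, and 116, 114 and 106 FPKM in glp-1 at D1 and 162, 156 and 155 FPKM in wild type at D1. It was lower in glp-1 at both ages in all 4 scalings, with -0.35 (SE 0.06) and -0.49 (SE 0.06). The sparse ech-1.1 (chromosome V, 15357664 to 15361512, minus strand) had 11.2, 13 and 11.7 FPKM in glp-1 at D6 and 1.67, 1.62 and 1.66 FPKM in wild type at D6, and 7.32, 10.1 and 6.31 FPKM in glp-1 at D1 and 1.90, 1.72 and 1.32 FPKM in wild type at D1. It was higher in glp-1 at both ages in all 4 scalings, by 2.29 (SE 0.15) and 1.74 (SE 0.15).

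Among the hydratase genes lower in glp-1, ech-2 had 6.26, 6.49 and 7.01 FPKM in glp-1 at D6 and 42.8, 36.2 and 38.2 FPKM in wild type at D6, and 13.9, 9.94 and 14.9 FPKM in glp-1 at D1 and 35.8, 36.2 and 34.9 FPKM in wild type at D1. The differences of ech-2 were -2.40 (SE 0.12, adjusted p = 3.31e-10) at D6 and -1.42 (SE 0.12, adjusted p = 1.17e-07) at D1, in all 4 scalings. For ech-5 glp-1 at D6 stood apart below the other groups, with 18.1, 23.8 and 26.0 FPKM in glp-1 at D6 and 65.4, 62.3 and 63.0 FPKM in wild type at D6, and 66.2, 61.7 and 65.8 FPKM in glp-1 at D1 and 70.9, 66.7 and 65.2 FPKM in wild type at D1. Its genotype difference was -1.47 (SE 0.10, adjusted p = 8.39e-09) at D6 and -0.07 (SE 0.10) at D1 (adjusted p = 0.549) as deposited. At D1 ech-5 was called lower in glp-1 with muscle and neuron scaling (-1.27) and intestinal scaling (-1.41). The changes with age differed by -1.40 (SE 0.14, adjusted p = 8.65e-06) in all 4 scalings. The gene ech-4 was likewise lower in glp-1 at D6 in all 4 scalings (-0.50, SE 0.06), but at D1 it was called higher as deposited (0.34, SE 0.06) and lower with muscle and neuron scaling (-0.87). For ech-3 the difference was 1.83 (SE 0.17) at D6 and 0.65 (SE 0.17) at D1 as deposited, and 0.20 and -0.51 with that scaling, and for ech-7 1.46 (SE 0.09) and 0.27 (SE 0.09) as deposited. The call for ech-7 at D1 ended without replicate 1 of glp-1 at D1 (0.20, adjusted p = 0.0619). Exons of ech-3 overlap those of F43H9.3 on the opposite strand, which averaged 4.70 FPKM in glp-1 and 16.4 FPKM in wild type at D6, where ech-3 itself averaged 40.3 and 10.8 FPKM. Those of ech-4 overlap R06F6.12, also on the opposite strand, which averaged 5.73 FPKM in glp-1 and 64.7 FPKM in wild type at D6, where ech-4 averaged 65.0 and 92.3 FPKM. Exons of ech-2 overlap those of tag-30 on the same strand, which averaged 8.15 FPKM in glp-1 and 35.8 FPKM in wild type at D6. The part of these neighbours in the values was not tested.

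The genes of the last 2 steps of the cycle differed in opposite directions between genotypes at D6, though not at D1 as deposited. The hydroxyacyl-CoA dehydrogenase gene hacd-1 (chromosome V, 1460369 to 1461613, plus strand) had 490.0, 447 and 428 FPKM in glp-1 at D6 and 56.3, 40.3 and 55.2 FPKM in wild type at D6. It had 599.7, 536 and 539.6 FPKM in glp-1 at D1 and 176, 134 and 169.7 FPKM in wild type at D1. The glp-1 libraries were several times higher, with ratios of mean FPKM of 8.99 at D6 and 3.49 at D1 and differences of 3.16 (SE 0.13, adjusted p = 3.28e-11) and 1.81 (SE 0.13, adjusted p = 1.48e-08), in all 4 scalings. With age hacd-1 fell in wild type in all 4 scalings (-1.65, SE 0.13), while the value in glp-1 was -0.30 (SE 0.13, adjusted p = 0.0665) and 0.19 with muscle and neuron scaling. In glp-1 every D6 library lay below every D1 library, and hacd-1 was called lower with median-of-ratios scaling (-0.48) and intestinal scaling (-0.48). The changes differed by 1.35 (SE 0.18, adjusted p = 7.15e-05). The thiolase kat-1 (chromosome II, 7073814 to 7075511, plus strand), whose loss makes worms accumulate fat, had 87.9, 75.9 and 87.6 FPKM in glp-1 at D6 and 153, 152 and 159 FPKM in wild type at D6. It had 314, 306 and 317 FPKM in glp-1 at D1 and 275, 274 and 251 FPKM in wild type at D1. At D6 the glp-1 libraries lay below the wild-type libraries in all 4 scalings (-0.88, SE 0.06, adjusted p = 1.47e-08), and at D1 slightly above them as deposited (0.23, SE 0.06, adjusted p = 0.00493) but below them with muscle and neuron scaling (-0.99). It fell with age in glp-1 in all 4 scalings (-1.89, SE 0.06, adjusted p = 2.75e-10) and in wild type as deposited (-0.78, SE 0.06, adjusted p = 6.28e-07), where muscle and neuron scaling gave 0.19. The fall was larger in glp-1 (-1.11, SE 0.09, adjusted p = 1.57e-06), the reverse of daf-22, the thiolase of the peroxisomal cycle.

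**Figure D4:**
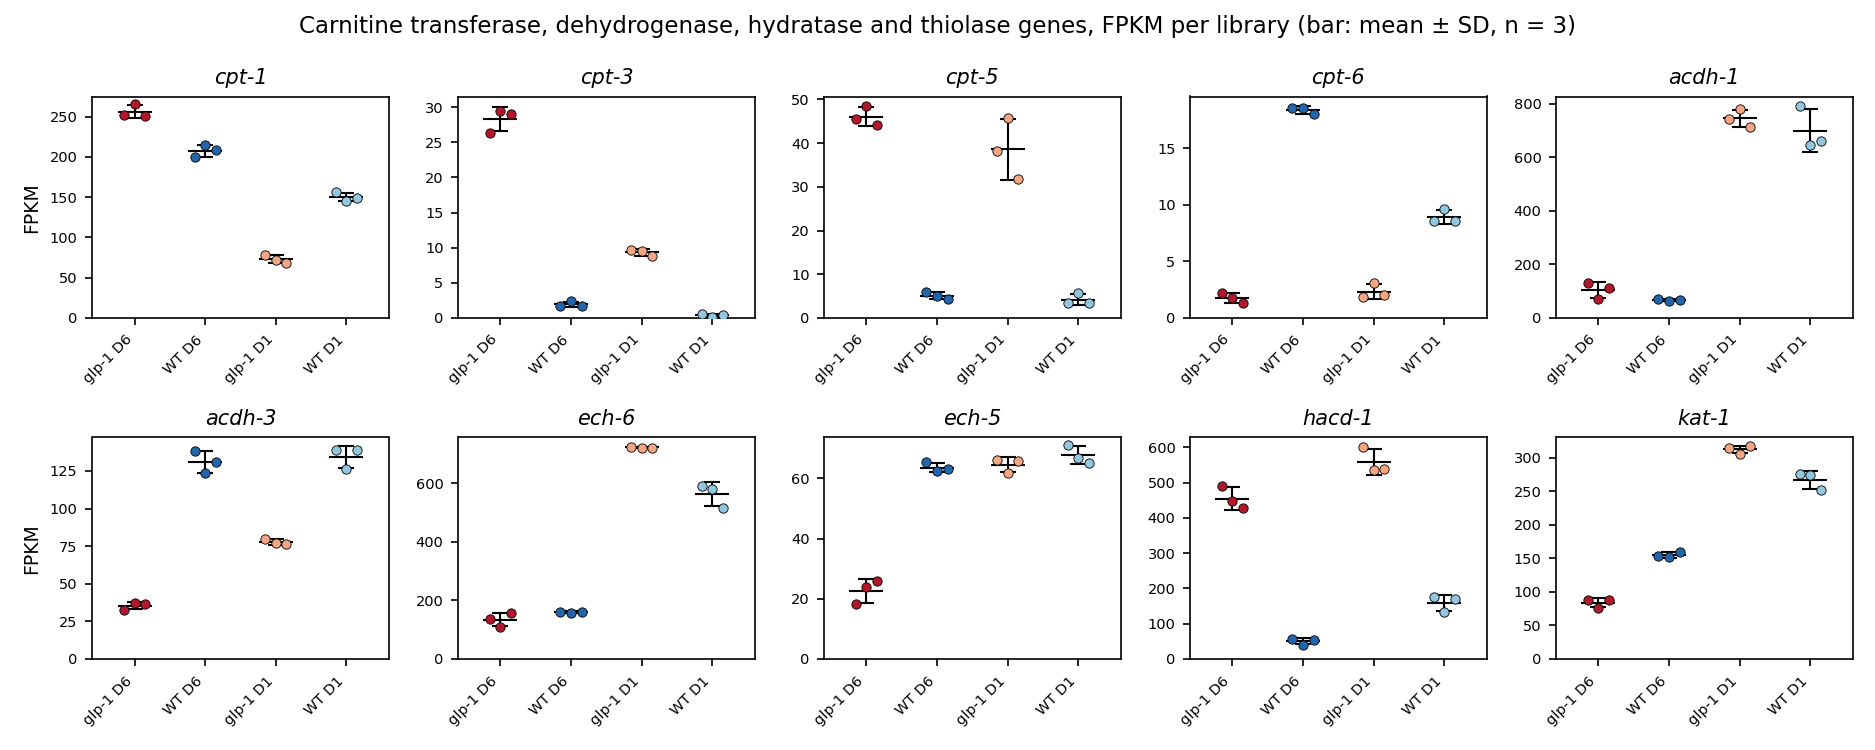
FPKM of 4 carnitine transferase genes, 2 acyl-CoA dehydrogenase genes, 2 hydratase genes, hacd-1 and kat-1 in each library (points) with mean and SD (bars), in glp-1 and wild type (WT) at D6 and D1, on linear axes from 0. The points of cpt-3, cpt-5 and hacd-1 lie higher in glp-1, those of cpt-6 and acdh-3 lower, and those of acdh-1 and ech-6 lie far lower at D6 than at D1 in both genotypes.

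Across all members, as many were higher as lower with age in glp-1, while in wild type more were lower. In glp-1 17 members (37.8%) were higher at D6 than at D1 and 17 were lower, against 39.1% and 15.6% of all genes tested. In wild type 10 (22.2%) were higher and 17 (37.8%) lower, against 35.1% and 22.7% of all genes. The member medians were -0.11 in glp-1 and -0.08 in wild type, beside 0.20 and 0.13 over all genes. The libraries of the 2 ages did not overlap for 37 of 45 members in glp-1 and 27 in wild type, against 59.8% and 64.9% of all genes. Muscle and neuron scaling gave 22 higher and 13 lower in glp-1, against 57.4% and 6.3% of all genes, and 26 higher and 12 lower in wild type, against 72.5% and 8.87%. Those higher at D6 in both genotypes in all 4 scalings numbered 6, namely lipl-1, lipl-2, cpt-1, cpt-3, cpt-4 and acdh-10, and 5 were lower, namely acdh-1, acdh-2, acdh-9, ech-6 and ech-7, against 9.76% and 2.32% of all genes tested. The members acox-1, maoc-1, ech-3, ech-8 and lipl-5 were called higher with age in glp-1 and lower in wild type as deposited, and atgl-1 the opposite, while with muscle and neuron scaling lipl-5 (0.59) and ech-3 (0.49) had values above 0 in wild type. For lipl-5 both calls were weak. The value in glp-1 (0.36, SE 0.14, adjusted p = 0.0494) lost its call without any 1 of the D1 replicates or without replicate 2 or 3 at D6 (0.30 to 0.38, adjusted p from 0.0826 to 0.131). The value in wild type (-0.38, SE 0.14, adjusted p = 0.0358) lost it without replicate 1 or 3 at D1 or replicate 2 or 3 at D6 (-0.36 to -0.27, adjusted p from 0.0864 to 0.145).

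The change with age differed between genotypes for most members. For 18 (40%) the change in glp-1 was above that in wild type and for 13 (28.9%) below it, against 30.9% and 16.6% of all genes tested. Muscle and neuron scaling gave 13 and 17, against 13.7% and 40.7% of all genes. In all 4 scalings 13 were above and 13 below, against 10.2% and 16.4% of all genes. Those above were acox-1, acox-3, maoc-1, dhs-28, daf-22, hacd-1, ech-7, ech-8, cpt-1, lipl-4, acdh-2, acdh-8 and acdh-9. Those below were kat-1, ech-2, ech-4, ech-5, ech-6, acdh-3, acdh-13, atgl-1, cpt-6, acox-2, lipl-2, lipl-3 and lipl-6. Of the members in these lists, lipl-4, lipl-6 and acdh-8 met the minimum level in 1 genotype or 1 group only, which set their values in part. The value of lipl-2 (-0.81, SE 0.27, adjusted p = 0.0255) lost its call without replicate 2 of wild type at D1, replicate 1 of wild type at D6, replicate 1 or 3 of glp-1 at D1 or replicate 1 of glp-1 at D6 (-0.75 to -0.64, adjusted p from 0.0581 to 0.064). All comparisons use the same 12 libraries, so that these lists are not independent of those above.

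**Figure D5:**
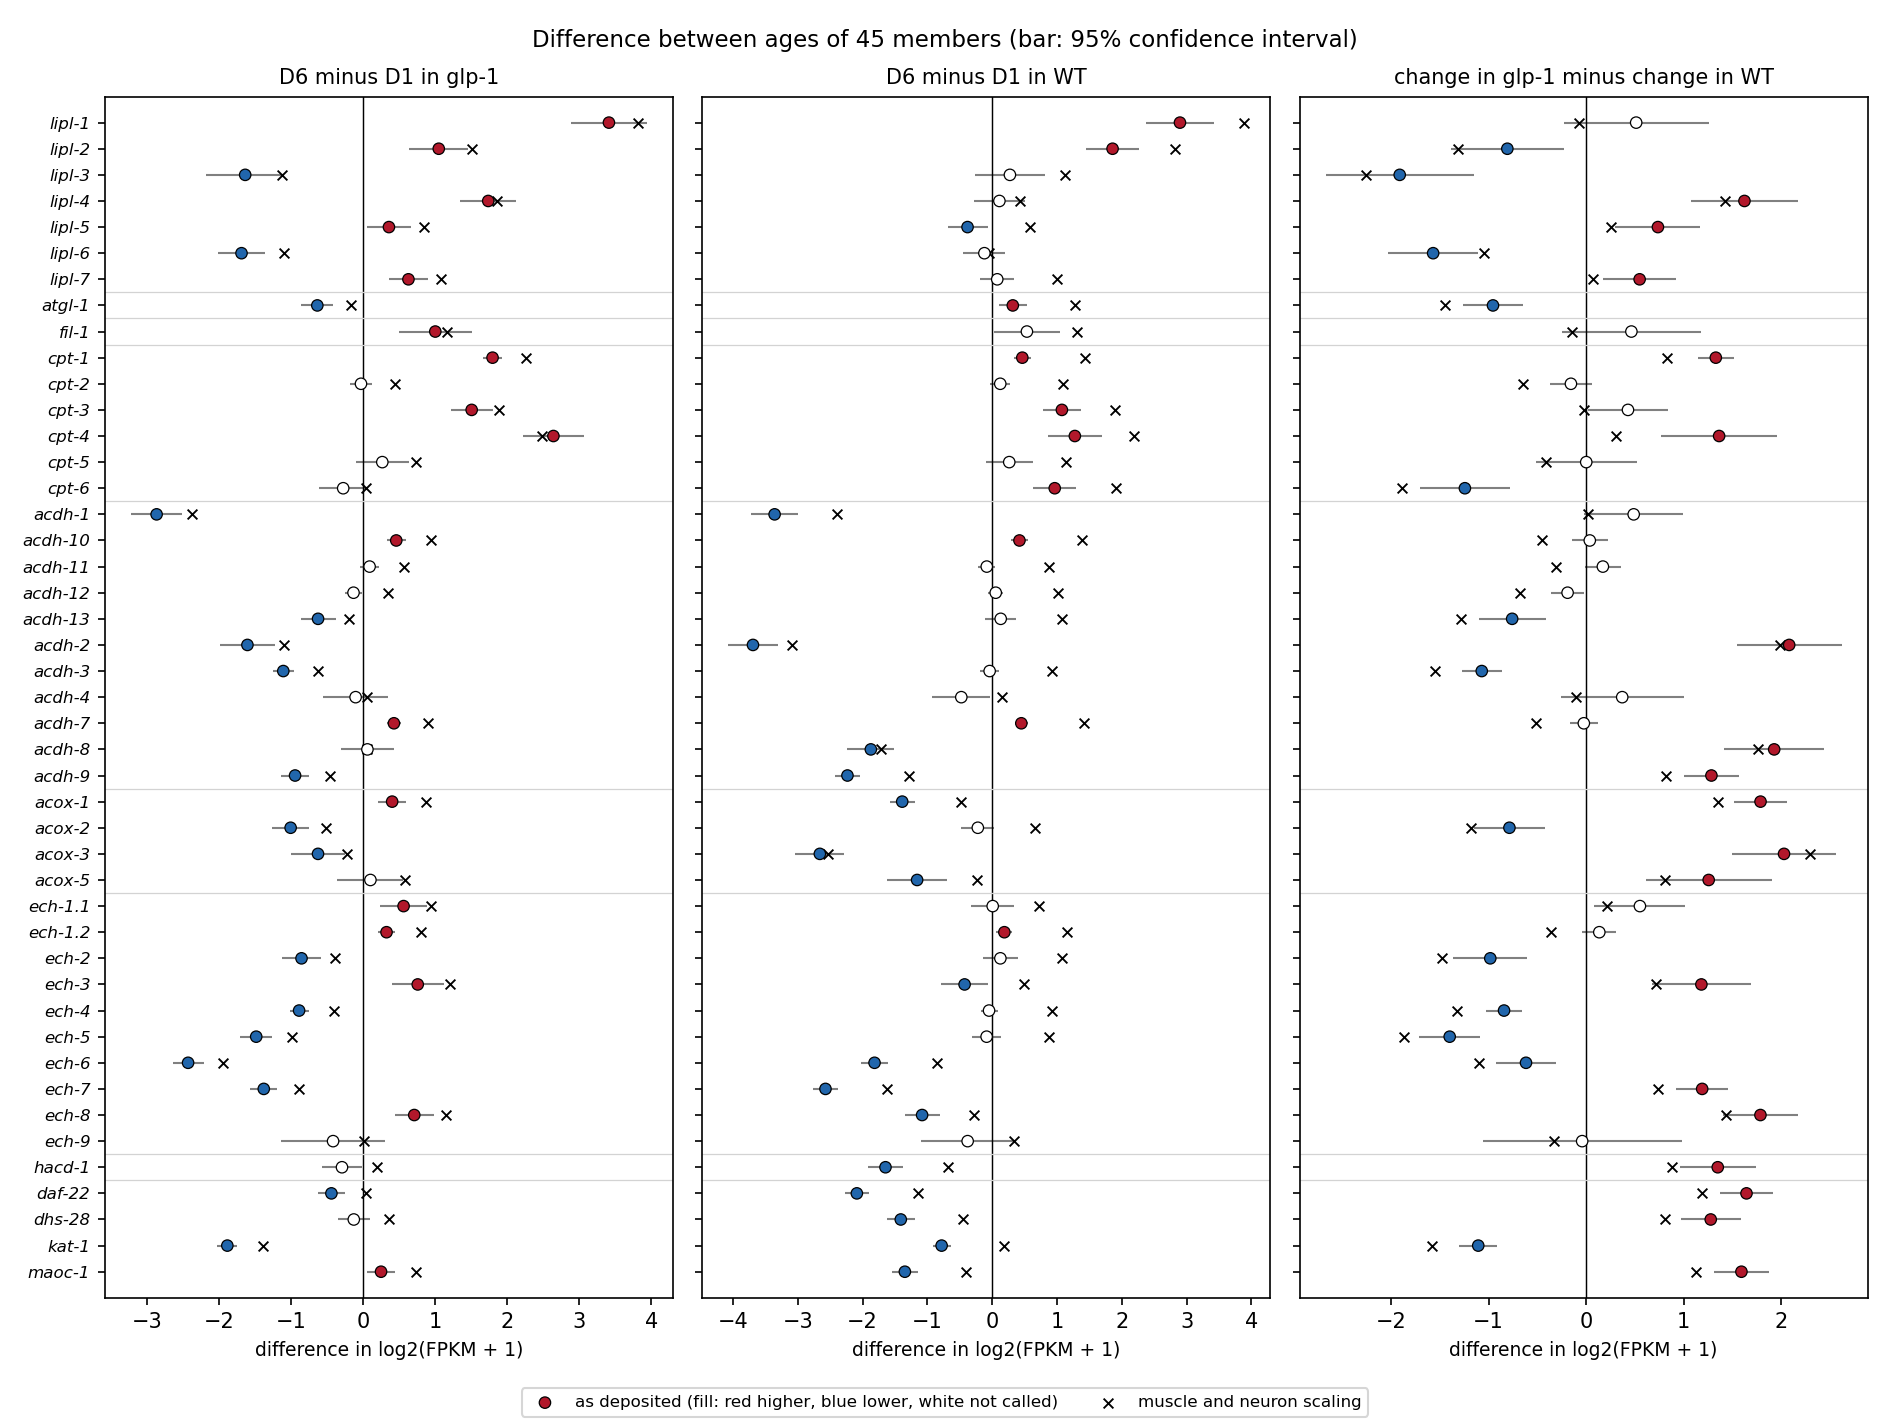
Difference in log2(FPKM + 1) between D6 and D1 for the 45 members in glp-1 (left) and wild type (WT, middle), and the change in glp-1 minus the change in WT (right), with circles for FPKM as deposited, bars for 95% confidence intervals and crosses for the muscle and neuron scaling. In the right panel acox-1, maoc-1, dhs-28, daf-22 and hacd-1 lie right of 0 and kat-1, ech-5, acdh-3 and atgl-1 left of it on both scales.

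Other genes of peroxisomes and acyl-CoA supply were read from lists, whose counts stand beside the shares of all genes given above for each comparison. Of 17 genes for peroxisome import and membrane proteins, 13 were called higher and 4 lower in glp-1 at D6, and the same counts were found at D1, as deposited. With muscle and neuron scaling 12 were higher and 4 lower at D6, but 2 higher and 5 lower at D1. The list's median difference as deposited was 2.38 at D6 and 1.13 at D1, beside -0.03 and -0.15 over all genes. Examples at D6 were pmp-2, a peroxisomal ABC transporter, with means of 69.8 ± 2.96 FPKM in glp-1 and 6.83 ± 1.56 FPKM in wild type (SD, n = 3) and a difference of 3.19 (SE 0.12), its relative pmp-4 (2.94, SE 0.08), the peroxisomal catalase ctl-2 (2.77, SE 0.09) and the receptor for imported enzymes prx-5 (2.08, SE 0.14). All but prx-5 of these held in all 4 scalings. Lower ones, also in all 4, were pmp-3 (-1.36, SE 0.06), prx-10 (-1.70, SE 0.14), prx-14 (-0.74, SE 0.12) and prx-19 (-1.27, SE 0.06). With age 12 of the 17 were lower and 3 higher in wild type, and 2 lower and 9 higher in glp-1, as deposited, against 3 lower and 6 higher in wild type and 13 higher in glp-1 with muscle and neuron scaling. The change was above that in wild type for 14 and below it for 1 as deposited, and for 9 and 1 in all 4 scalings. These 9 were ctl-2, pmp-1, pmp-2, pmp-4, pmp-5, prx-2, prx-11, prx-12 and prx-13.

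Acyl-CoA synthetases, which activate fatty acids before oxidation or storage, were higher in glp-1 for 12 and lower for 4 of 20 tested at D6, and higher for 9 and lower for 7 at D1, as deposited. With muscle and neuron scaling 9 were higher and 7 lower at D6, and 4 higher and 12 lower at D1. Their median difference as deposited was 1.53 at D6 and -0.16 at D1. At D6 acs-22 (3.24, SE 0.08), acs-1 (2.89, SE 0.08) and acs-17 (2.78, SE 0.16) were higher, and acs-4 (-2.72, SE 0.07) and acs-13 (-2.10, SE 0.06) lower, all in all 4 scalings. The fasting-responsive acs-2 had means of 21.0 ± 3.52 FPKM in glp-1 and 5.40 ± 1.88 FPKM in wild type at D6, and 11.8 ± 2.06 and 16.4 ± 6.42 FPKM at D1. The dehydrogenase let-721, which passes electrons from acyl-CoA dehydrogenases to the respiratory chain, was lower in glp-1 in all 4 scalings, with -0.67 (SE 0.06) at D6 and -0.60 (SE 0.06) at D1.

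The members were spread over the 6 chromosomes, with 13 on chromosome V, which carries 6 of the 7 lipl members. Of the 41 members placed on the annotation, 6 had exons that overlap a protein-coding gene on the opposite strand and 3 on the same strand. Besides those given above, maoc-1 overlaps E04F6.6, which averaged 15.3 FPKM in glp-1 and 2.29 FPKM in wild type at D6, and dhs-28 overlaps gei-15, at 19.6 and 3.74 FPKM. Both partners were far below their member. On the opposite strand acdh-12 overlaps E04F6.4, at 23.9 and 3.03 FPKM in glp-1 and wild type at D6, where acdh-12 averaged 98.9 and 118.5 FPKM. On the same strand acdh-2 overlaps ins-13 and lipl-3 overlaps srw-107, with group means of at most 2.49 and 0.00293 FPKM. The part of these partners in the values was not tested. No source used here states whether counting was strand-specific, and such pairs, like near-identical paralogs, are uncertain one by one.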

How the data were processed

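RNA was extracted with TRIzol from whole animals and made into libraries with a NEBNext Ultra kit, per the labels' protocols. Per the file headers, the authors deposited FPKM per gene in 1 file for each of the 12 libraries. DESeq2 1.6.3, HISAT2 2.0.4 and the build WBcel235 appear in the submitters' processing notes, with no role given there. Neither the program behind the FPKM values nor its strand setting is stated in these sources. Values were not scaled further. A minimum of 1 FPKM in 3 of 12 libraries left 13614 of 20257 genes. These were tested on log2(FPKM + 1) in R 4.3.3 with limma 3.58.1, using 1 mean per group, an intensity trend, robust variances and 8 residual degrees of freedom. The limma test was checked on simulated data for comparisons of 2 groups, not for the difference of the changes. Few genes were changed in that simulation, so it does not speak to comparisons in which most genes are called. Adjusted p-values are Benjamini-Hochberg over all genes tested, and confidence intervals are at 95%. Depth per library was estimated from the steps between low FPKM values, at 17760000 to 20120000 fragments. No count test was run and no counting interval is given. Tables and plots used Python 3.11.15, pandas 2.3.3 and matplotlib 3.10.9. Coordinates are those of an Ensembl annotation of WBcel235.

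The members and gene lists were chosen with earlier results of these data known. Values in every library are given for kat-1, daf-22, dhs-28, maoc-1 and atgl-1, for the members with the 5 highest and 5 lowest differences among those called in each comparison with a group mean of at least 5 FPKM, and for the most abundant member of each family. Other members are named to complete a family or an enzyme step. Alternatives were other scalings, pseudocounts, filters and variance models, a replicate block, fits to the 2 groups compared and fits without single libraries. The intestinal marker scaling, and leaving out replicates 1 and 3 of glp-1 at D6 for their higher germline sums, were added after the data had been seen.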

Additional observations from a re-analysis of the deposited data

Results flagged for a closer look

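For 26 of the 32 members given library by library under the naming rule, the change from D1 to D6 differed between glp-1 and wild type by the interaction term of the limma fit. That rule itself takes in the members with the highest and lowest called interaction values, so this count was set in part by the rule. Of all genes tested, 30.9% had a change in glp-1 above that in wild type and 16.6% below it. The values are the change in glp-1 minus the change in wild type, on the log2(FPKM + 1) scale as deposited. Among lipases they were 1.62 for lipl-4, 0.74 for lipl-5, -0.81 for lipl-2, -1.91 for lipl-3 and -0.96 for atgl-1. Among acyl-CoA oxidases they were 2.03 for acox-3, 1.79 for acox-1, 1.26 for acox-5 and -0.79 for acox-2. The other peroxisomal enzymes had 1.65 for daf-22, 1.59 for maoc-1 and 1.28 for dhs-28. Among carnitine transferase genes the values were 1.36 for cpt-4, 1.33 for cpt-1 and -1.24 for cpt-6. Among acyl-CoA dehydrogenase genes they were 2.08 for acdh-2, 1.29 for acdh-9, -0.76 for acdh-13 and -1.07 for acdh-3. Among hydratase genes they were 1.79 for ech-8, 1.19 for ech-7, -0.62 for ech-6, -0.98 for ech-2 and -1.4 for ech-5. For hacd-1 the value was 1.35 and for kat-1 -1.11. The values of acox-5, cpt-4 and lipl-5 were not called with muscle and neuron scaling. The minimum level was met by lipl-4 through glp-1 libraries only, which set its value in part.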

How the results depend on the processing

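Scaling moved the counts of members called more than any other choice tried. With muscle and neuron scaling 14 members were higher and 22 lower in glp-1 at D6, 10 and 25 at D1, and 26 were higher at D6 in wild type. With intestinal scaling these were 13 and 25 at D6, 11 and 26 at D1, and 22 in wild type, and 11 were higher at D6 in glp-1. Over all 45 members and 5 comparisons, 53 values changed sign with muscle and neuron scaling and 50 with intestinal scaling, and both values were called in 16 and 18 of these. The signs that follow are those of the genes given library by library. Muscle and neuron scaling turned the difference between genotypes at D6 for ech-7 (-0.22), acdh-2 (-0.27), fil-1 (-0.34), cpt-4 (-0.59), acdh-1 (-1.11), acdh-7 (-1.15), lipl-3 (-1.28), cpt-1 (-1.40) and acdh-9 (-1.59), and at D1 for acox-1 (-0.0359), maoc-1 (-0.093), daf-22 (-0.12), fil-1 (-0.19), acdh-7 (-0.64), ech-6 (-0.86), ech-7 (-0.95), kat-1 (-0.99) and acdh-1 (-1.13). It turned the change with age in glp-1 for cpt-6 (0.0315), daf-22 (0.0404), hacd-1 (0.19) and dhs-28 (0.35), in wild type for kat-1 (0.19), lipl-5 (0.59), acox-2 (0.66), ech-5 (0.88) and acdh-3 (0.93), and the difference of the changes for cpt-3 (-0.0199), lipl-1 (-0.0687), fil-1 (-0.15) and cpt-5 (-0.42). Intestinal scaling turned the difference between genotypes at D6 for acdh-2 (-0.49), ech-7 (-0.52), fil-1 (-0.57), cpt-4 (-0.85), acdh-1 (-1.42), acdh-7 (-1.46), lipl-3 (-1.50), cpt-1 (-1.72) and acdh-9 (-1.89), and at D1 for ech-8 (-0.0682), acox-1 (-0.18), maoc-1 (-0.23), daf-22 (-0.27), fil-1 (-0.30), acdh-7 (-0.78), ech-6 (-1.004), ech-7 (-1.09), kat-1 (-1.14) and acdh-1 (-1.27). It turned the change with age in glp-1 for acox-5 (-0.0822), in wild type for lipl-5 (0.0958), acox-2 (0.21), ech-5 (0.39) and acdh-3 (0.44), and the difference of the changes for acdh-1 (-0.15), lipl-1 (-0.26), fil-1 (-0.27), cpt-3 (-0.42) and cpt-5 (-0.62). The cause was not tested. Under the other alternatives each sign that turned was between values neither of which was called. These were, with median-of-ratios scaling, ech-5 at D1 (0.0424), acdh-9 at D6 (-0.0245), acox-5 with age in glp-1 (-0.0855) and cpt-5 in the difference of the changes (-0.19), and in that difference cpt-3 (-0.53 and -0.22) and cpt-5 (-0.0484 and -0.0385) with pseudocounts of 0.1 and 0.25. Leaving out 1 library moved values across 0 for lipl-3 at D6 (-0.12 to 0.36, and -0.0926 without replicates 1 and 3 of glp-1 at D6), acox-5 with age in glp-1 (-0.0002 to 0.23), lipl-4 (-0.0005 to 0.30) and acdh-3 (-0.0853 to 0.001) with age in wild type, and cpt-5 in the difference (-0.20 to 0.13). Leaving out 1 library at a time gave 28 to 29 higher and 11 to 12 lower at D6, 26 to 28 and 12 to 13 at D1, 15 to 17 and 17 to 18 with age in glp-1, 9 to 11 and 15 to 18 with age in wild type, and 18 to 20 and 12 to 14 for the difference of the changes. Same-numbered libraries did not deviate together (correlations of -0.144 to 0.146), so the numbers were not taken as pairs, and a replicate block gave 28 and 12 at D6, 27 and 13 at D1, 15 and 18 with age in glp-1, 10 and 17 with age in wild type, and 19 and 13 for the difference. Without replicates 1 and 3 of glp-1 at D6 the counts were 27 and 11 at D6, 15 and 15 for the glp-1 age change and 18 and 12 for the difference. Genes near 1 FPKM, such as acdh-4, acdh-8 and lipl-6, are limited by depth.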

Other observations

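Among 9 fatty acid binding protein genes, 6 were called higher and 2 lower in glp-1 at both ages as deposited, against 2 higher and 3 lower at D6 and 1 higher and 3 lower at D1 with muscle and neuron scaling. Of all genes tested, 44.4% were higher and 45.4% lower at D6 as deposited, and 41.3% and 48.1% at D1. With muscle and neuron scaling these shares were 20.3% and 59.4% at D6, and 13.2% and 59.4% at D1. At D6 lbp-6 was higher in all 4 scalings (2.52, SE 0.09, adjusted p = 1.39e-11), and lbp-9 (-3.69, SE 0.09, adjusted p = 4.1e-13) and lbp-4 (-2.31, SE 0.17, adjusted p = 2.6e-08) were lower in all 4. The lysosomal carrier lbp-8, known to act downstream of lipl-4, had means of 2.01 ± 0.102 FPKM in glp-1 and 0.326 ± 0.304 FPKM in wild type at D6 (SD, n = 3), a difference of 1.21 (SE 0.18) as deposited and 0.55 with muscle and neuron scaling. It was lower at D6 than at D1 in both genotypes in all 4 scalings, with -1.12 (SE 0.18) in glp-1 and -1.60 (SE 0.18) in wild type.

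Of 17 regulators of fat metabolism, 10 were called higher and 4 lower in glp-1 at D6, and 10 and 5 at D1, as deposited, against 3 and 11 at D6 and 3 and 10 at D1 with muscle and neuron scaling. The shares of all genes were 44.4% higher and 45.4% lower at D6 and 41.3% and 48.1% at D1 as deposited. They were 20.3% and 59.4% at D6 and 13.2% and 59.4% at D1 with that scaling. The transcription factor gene mxl-3, known to repress lipl genes in fed worms, was higher in glp-1 at both ages in all 4 scalings, by 3.80 (SE 0.14, adjusted p = 1.19e-11) at D6 and 2.74 (SE 0.14, adjusted p = 4.33e-10) at D1. For hlh-30, which activates them in fasting, the differences were 1.13 (SE 0.10) and 1.01 (SE 0.10) as deposited, and -0.56 and -0.20 with muscle and neuron scaling. For the nuclear receptor gene nhr-80 they were 2.08 (SE 0.11) and 1.29 (SE 0.11) as deposited. For nhr-49, a receptor tied to beta-oxidation genes, neither difference was called as deposited, with 0.08 (SE 0.09) and 0.19 (SE 0.09). Lower in glp-1 at both ages in all 4 scalings were mxl-2, nhr-13, nhr-66 and skn-1.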
